A study of Rattus norvegicus with 30 samples.

Results

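Actc1, Myh6, Tnnt2, Tnni3, Myl4, Myl7, Nppa and Ryr2 are 8 genes of the heart muscle cell that were also read in rat lung. They were picked by gene symbol from the 22914 genes of the count table, each matched a row of the counts and of the FPKM values (fragments scaled to gene length and library size), and all 8 passed the filter on low counts. The count table places Tnni3 (ENSRNOG00000018250) on chromosome 1, Actc1 (ENSRNOG00000008536) on chromosome 3, Nppa (ENSRNOG00000008176) on chromosome 5, Myl4 (ENSRNOG00000050675) on chromosome 10, Tnnt2 (ENSRNOG00000033734) on chromosome 13, Myl7 (ENSRNOG00000014409) on chromosome 14, Myh6 (ENSRNOG00000025757) on chromosome 15, and Ryr2 (ENSRNOG00000017060) on chromosome 17, so no 2 of them share a chromosome. RNA from lung tissue was sequenced for 30 rats (male, Sprague Dawley, 8 weeks of age), with 3 rats in each of 10 groups. In Sham-6h and Sham-24h the pancreas was only moved during surgery, and in Con-6h and Con-24h saline was infused into the biliopancreatic duct. SAP-6h and SAP-24h received 5.0% sodium taurocholate, a bile salt, through the same duct, which causes severe acute pancreatitis with acute lung injury. DEX-6h and DEX-24h received taurocholate and then DEX, a glucocorticoid, intravenously at 10 mg/kg. Emo-6h and Emo-24h received taurocholate and then emodin, an anthraquinone of rhubarb, into the stomach, at 40 mg/kg by the protocol and at 10 mg/kg by the sample descriptions. Lungs were collected 6 or 24 h after the operation, and with doses set for 2 and 12 h the rats studied at 6 h had received only the first. All rats were fasted, anaesthetised with pentobarbital and given the vehicle of each drug they did not receive, and their lungs were flushed through a needle passed from the right ventricle into the pulmonary artery. How much of the large vessels at the root of the lung went into each sample is not given in the sources used here.

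In rats and other rodents, a sleeve of heart muscle surrounds the pulmonary veins and follows their branches into the lung, where it contracts with the left atrium. Its cells carry the sarcomere of heart muscle: actin filaments (Actc1) regulated by troponin T (Tnnt2) and troponin I (Tnni3), and myosin filaments of the alpha heavy chain (Myh6) with the atrial light chains (Myl4, Myl7). Ryr2 is the channel through which calcium leaves the sarcoplasmic reticulum to start contraction, and Nppa encodes atrial natriuretic peptide, a hormone that atrial muscle secretes. In tissue RNA, fewer muscle cells and less RNA of a gene per cell cannot be told apart.

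The sequence before the start of 3 members is shown as an example of the windows searched: Nppa, Tnni3 and Tnnt2 were picked after the search because between them they hold each motif that any member held. The sequences are the 250 bases upstream of the start on the strand of the gene, from RefSeq on GRCr8, a later assembly than that of the deposited values, so no coordinate was joined between them. Capitals mark the letters that were searched: AGATAA (bound by GATA factors), CATTCC (the M-CAT element bound by TEAD factors), AAGTG (within the NKX2-5 motif) and TATAAA (the TATA box), each on both strands.
Nppa (chr5:163711934-163712183, plus strand): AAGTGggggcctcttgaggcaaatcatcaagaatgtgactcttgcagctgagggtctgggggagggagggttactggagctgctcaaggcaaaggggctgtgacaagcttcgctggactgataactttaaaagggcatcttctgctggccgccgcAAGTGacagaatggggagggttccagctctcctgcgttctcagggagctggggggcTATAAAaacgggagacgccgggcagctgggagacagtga
Tnni3 (chr1:78342321-78342570, plus strand): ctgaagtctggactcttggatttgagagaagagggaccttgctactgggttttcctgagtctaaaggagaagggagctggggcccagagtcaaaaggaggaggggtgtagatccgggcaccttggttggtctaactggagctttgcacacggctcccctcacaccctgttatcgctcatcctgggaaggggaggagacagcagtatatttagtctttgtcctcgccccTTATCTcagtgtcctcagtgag
Tnnt2 (chr13:49818873-49819122, plus strand): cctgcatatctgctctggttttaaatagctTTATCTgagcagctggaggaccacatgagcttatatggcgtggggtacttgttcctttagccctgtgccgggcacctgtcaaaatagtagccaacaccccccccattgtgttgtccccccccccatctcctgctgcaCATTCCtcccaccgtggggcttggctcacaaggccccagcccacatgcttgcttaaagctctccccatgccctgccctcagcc
TATAAA stood 39 bases before the start of Nppa, and AAGTG 95 and 250 bases before it. Tnni3 held AGATAA, read on the other strand as TTATCT, 22 bases before its start. Tnnt2 held AGATAA 220 bases and CATTCC 83 bases before its start. Of the members not printed, Myl7 held AAGTG 56, 114, 180 and 216 bases before its start, Myl4 held TATAAA 91 bases and Myh6 held CATTCC 23 bases before it. The 8 members had 9 windows, because Tnnt2 has 2, of which the first is printed. Each of the 4 motifs was found in 2 of the 9. AGATAA was in 10.3% of all 33469 windows of this length, CATTCC in 12.1%, AAGTG in 40.6% and TATAAA in 12.9%. A CArG box, the motif of serum response factor, was in 1.5% of all windows and an MEF2 box in 2.96%, and neither was in a member's window, which says only that these letters are not in these 250 bases. None of the 4 motifs was shared by Nppa, Tnni3 and Tnnt2.

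The summed FPKM of the 8 genes ranged from 7.46 to 326.2, a 43.7-fold range, and most of this range was found between rats of the same group. At 6 h the 3 rats had summed levels of 18.99, 245.1 and 16.67 FPKM in Sham, 14.27, 195.5 and 250.8 FPKM in Con, and 8.17, 203.6 and 198.2 FPKM in SAP. The levels were 259.3, 33.72 and 326.2 FPKM in DEX-6h and 49.95, 154.5 and 18.06 FPKM in Emo-6h. Each of these 5 groups held rats with little and rats with much heart muscle RNA. At 24 h the levels were 183, 11.8 and 147.1 FPKM in Sham, 112.7, 42.69 and 21.57 FPKM in Con, and 11.13, 7.46 and 136.2 FPKM in SAP. They were 133.2, 19.53 and 157.5 FPKM in DEX-24h and 264.2, 127.6 and 202 FPKM in Emo-24h. Emo-24h was the only group of the 10 whose 3 rats were all high.

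In order of the summed level, 13 libraries lay between 7.46 and 49.95 FPKM and 17 lay between 112.7 and 326.2 FPKM. The step between these sets was 2.26-fold, and the next widest step between neighbours was 1.56-fold. Both sets were found in 9 of the 10 groups. The lower set held 7 libraries of 6 h and 6 of 24 h, 7 from rats given taurocholate and 6 from rats without it. The upper set held 8 libraries of 6 h and 9 of 24 h, 11 with taurocholate and 6 without. These sets were read from the levels themselves and are not groups of the study. In reads, the 8 genes took 12.7 to 93.6 RPM (reads scaled to the library's reads on genes) in the lower set and 199 to 617 RPM in the upper set. The libraries held 16813949 to 34692306 reads on genes in all, and 23100017 to 31370567 in the lower set. The library with the fewest reads, SAP-6h replicate 3, was in the upper set.

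**Figure D1:**
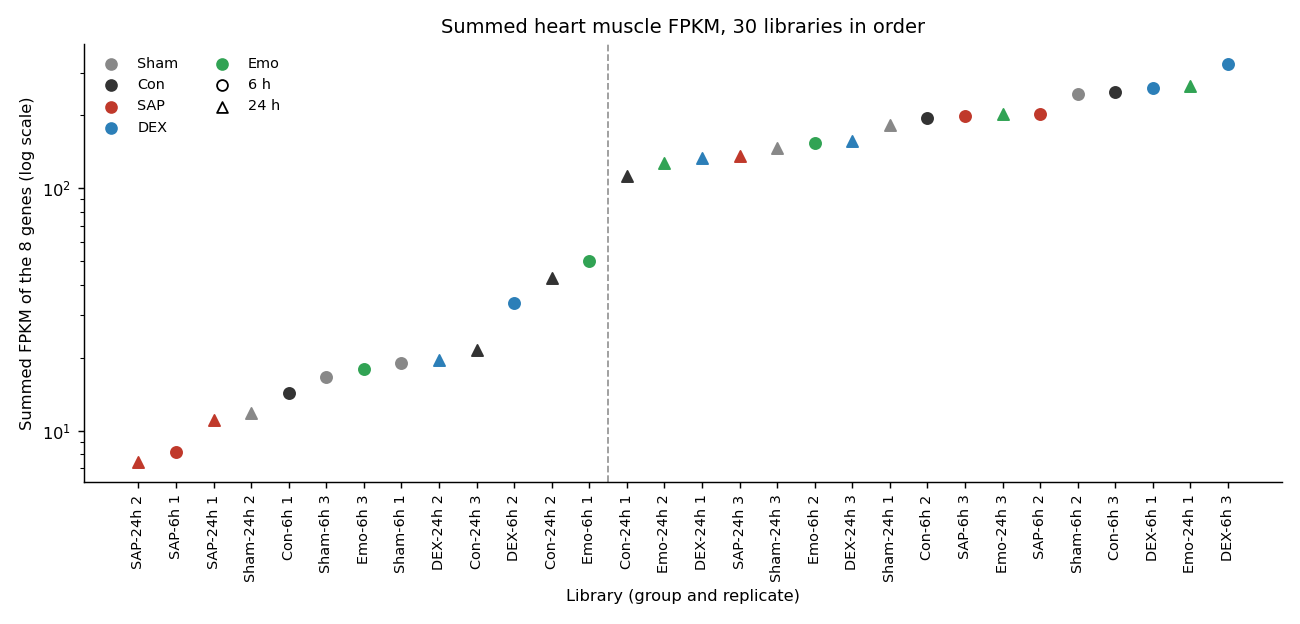
Summed FPKM of the 8 heart muscle genes (y axis, log scale) in each of the 30 libraries, in ascending order along the x axis, with colours for the treatment, circles for 6 h and triangles for 24 h. The dashed line stands at the 2.26-fold step between the 13 lower and the 17 upper libraries, and each treatment is found on both sides of it.

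Among the thin filament genes, Actc1, cardiac alpha actin, ranged from 3.42 to 76.35 FPKM with a median of 26.8 FPKM. At 6 h Actc1 was at 9.18, 63.03 and 12.6 FPKM in Sham, 9.65, 40.49 and 72.71 FPKM in Con, 4.11, 39.58 and 46.18 FPKM in SAP, 54.32, 8.64 and 76.35 FPKM in DEX, and 26.81, 45.84 and 12.01 FPKM in Emo. At 24 h it was at 33, 9.1 and 34.26 FPKM in Sham, 33.16, 14.82 and 12.06 FPKM in Con, 3.42, 4.23 and 19.58 FPKM in SAP, 25.14, 8.33 and 31.02 FPKM in DEX, and 69.76, 26.85 and 48.95 FPKM in Emo. By group mean Actc1 was lowest in SAP-24h and highest in Emo-24h, and these groups did not overlap. It was the only member whose levels overlapped between the lower set (3.42 to 26.81 FPKM) and the upper set (19.58 to 76.35 FPKM). It also had reads in every library, at least 179. Tnnt2, which ties troponin to the filament, ranged from 1.04 to 6.19 FPKM in the lower set and from 15.71 to 40.75 FPKM in the upper set. At 6 h Tnnt2 was at 2.47, 37.16 and 2.24 FPKM in Sham, 1.47, 22.3 and 25.12 FPKM in Con, 1.7, 27.97 and 23.41 FPKM in SAP, 37.77, 3.75 and 29.52 FPKM in DEX, and 4.67, 16.44 and 1.53 FPKM in Emo. At 24 h Tnnt2 was at 25.35, 1.04 and 24.22 FPKM in Sham, 15.71, 6.19 and 1.95 FPKM in Con, 2.16, 1.43 and 24.8 FPKM in SAP, 25.27, 3.76 and 27.86 FPKM in DEX, and 40.75, 21.58 and 35.46 FPKM in Emo. The 3 rats of Emo-24h were above those of Emo-6h and of Con-24h, and 2 low rats stood beside 1 high rat in Sham-6h, Emo-6h, Con-24h and SAP-24h. Tnni3, which holds contraction back until calcium arrives, ranged from 0.4 to 6.9 FPKM and from 18.74 to 54.15 FPKM. At 6 h Tnni3 was at 2.03, 45.11 and 0.4 FPKM in Sham, 0.6, 31.49 and 32.27 FPKM in Con, 0.86, 36.48 and 28.79 FPKM in SAP, 54.15, 6.9 and 41.55 FPKM in DEX, and 3.46, 22.09 and 1.12 FPKM in Emo. At 24 h Tnni3 was at 35.88, 0.78 and 28.02 FPKM in Sham, 18.74, 6.21 and 1.54 FPKM in Con, 1.38, 0.4 and 26.37 FPKM in SAP, 27.9, 2.14 and 26.64 FPKM in DEX, and 42.33, 24.6 and 30.23 FPKM in Emo. The highest rat was in DEX-6h, and the lowest level was shared by 1 rat of Sham-6h and 1 of SAP-24h. Tnni3 is the troponin I of adult heart muscle and is not the form of skeletal muscle.

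Among the thick filament genes, Myh6 ranged from 0.01 FPKM (2 reads, Sham-24h replicate 2) to 25.03 FPKM (5782 reads, DEX-6h replicate 3). At 6 h Myh6 was at 0.44, 19.68 and 0.11 FPKM in Sham, 0.14, 14.25 and 12.66 FPKM in Con, 0.06, 13.82 and 16.63 FPKM in SAP, 22.81, 1.67 and 25.03 FPKM in DEX, and 2.31, 10.39 and 0.36 FPKM in Emo. At 24 h it was at 12.98, 0.01 and 5.61 FPKM in Sham, 4.21, 2.1 and 0.46 FPKM in Con, 0.15, 0.13 and 5.34 FPKM in SAP, 7.09, 0.19 and 3.74 FPKM in DEX, and 9.69, 6.4 and 5.07 FPKM in Emo. The low rats of both times lay at 2.31 FPKM or less, whereas the high rats of 6 h lay mostly above those of 24 h. Myl4, the atrial essential light chain, ranged from 0.79 to 6.94 FPKM in the lower set and from 17.36 to 93.44 FPKM in the upper set. At 6 h Myl4 was at 2.99, 43.77 and 0.9 FPKM in Sham, 1.76, 42.19 and 50.32 FPKM in Con, 1.14, 36.53 and 40.13 FPKM in SAP, 41.87, 6.38 and 93.44 FPKM in DEX, and 6.94, 29.67 and 2.18 FPKM in Emo. At 24 h Myl4 was at 24.14, 0.79 and 24.31 FPKM in Sham, 17.36, 6.73 and 3.01 FPKM in Con, 2.22, 0.88 and 29.38 FPKM in SAP, 18.52, 2.49 and 28.6 FPKM in DEX, and 44.8, 22.99 and 46.17 FPKM in Emo. DEX-6h replicate 3 stood highest and was also highest for Actc1, Myh6 and Myl7. Myl7, the atrial regulatory light chain, ranged from 0.07 to 6.61 FPKM and from 21.37 to 54.85 FPKM. At 6 h Myl7 was at 1.87, 32.62 and 0.31 FPKM in Sham, 0.65, 36.84 and 52.8 FPKM in Con, 0.3, 46.8 and 36.87 FPKM in SAP, 46.82, 6.33 and 54.85 FPKM in DEX, and 5.75, 29.13 and 0.82 FPKM in Emo. At 24 h Myl7 was at 41.27, 0.07 and 29.54 FPKM in Sham, 21.37, 6.61 and 2.53 FPKM in Con, 1.78, 0.38 and 28.06 FPKM in SAP, 27.7, 2.54 and 35.97 FPKM in DEX, and 52.24, 24.59 and 35.06 FPKM in Emo. Sham-24h held the lowest rat together with 2 high ones. The reads per FPKM imply a gene length of 2.46 kb for Myl7 and of 0.948 kb for Myl4, so Myl7 was ranked below Myl4 by its highest FPKM but above it by its highest reads (4339 against 2847). Reads that fit more than 1 place were discarded by the authors, and Myh6 and Actc1 have close relatives (Myh7, and Acta1 and Acta2), so their levels are uncertain to that extent.

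Nppa was the only member that had no read in some of the libraries. No read of Nppa was found in 9 libraries, which allows 0.0956 to 0.13 RPM by 3 counts of each library's total and covers counting error only. The 13 lower libraries held 0 to 2 reads and the 17 upper libraries 14 to 320 reads. Nppa was at 0, 3.59 and 0.08 FPKM in Sham-6h, 0, 7.85 and 4.75 FPKM in Con-6h, 0, 2.31 and 6.05 FPKM in SAP-6h, 1.44, 0.03 and 5.29 FPKM in DEX-6h, and 0, 0.83 and 0.03 FPKM in Emo-6h. At 24 h it was at 10.2, 0 and 1 FPKM in Sham, 2.07, 0 and 0 FPKM in Con, 0, 0 and 2.62 FPKM in SAP, 1.47, 0.07 and 3.59 FPKM in DEX, and 4.43, 0.45 and 0.9 FPKM in Emo. The highest rat was in Sham-24h, and its group also held a rat without a read. Within the upper set the highest library was 22.7-fold above the lowest for Nppa, against 2.57-fold for Myl7 and 2.59-fold for Tnnt2.

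Ryr2, the calcium release channel, was read in every library but at low levels per length, from 0 to 0.25 FPKM after rounding to 2 decimals, on 1 to 115 reads. At 6 h Ryr2 was at 0.01, 0.17 and 0.03 FPKM in Sham, 0, 0.1 and 0.12 FPKM in Con, 0, 0.12 and 0.14 FPKM in SAP, 0.16, 0.02 and 0.18 FPKM in DEX, and 0.01, 0.09 and 0.01 FPKM in Emo. At 24 h it was at 0.2, 0.01 and 0.13 FPKM in Sham, 0.06, 0.03 and 0.02 FPKM in Con, 0.02, 0.01 and 0.07 FPKM in SAP, 0.09, 0.01 and 0.13 FPKM in DEX, and 0.25, 0.14 and 0.15 FPKM in Emo. The 3 rats of Emo-24h lay above every rat of Con-6h, Emo-6h, Con-24h, SAP-24h and DEX-24h.

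**Figure D2:**
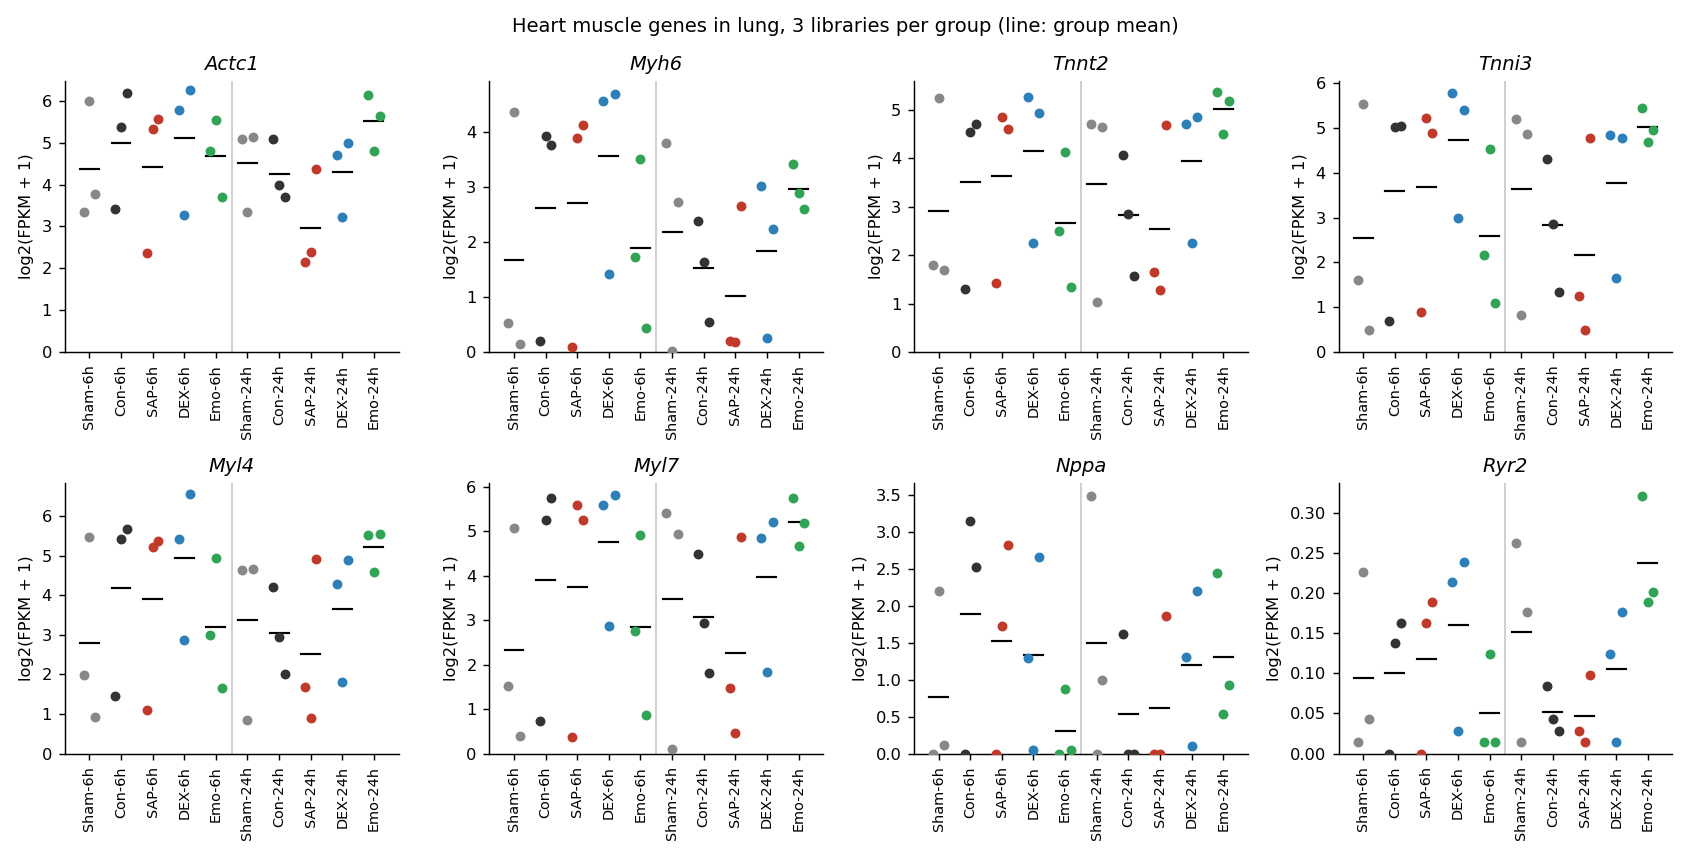
Level of each heart muscle gene as log2(FPKM + 1) on the y axis, with 1 point per library and a line at the mean of the 3 log2 values of each of the 10 groups on the x axis, 6 h left and 24 h right of the grey line. Points of most groups lie both near the bottom and near the top of the range, and the 3 points of Emo-24h lie in its upper part for Tnnt2, Tnni3 and Myl7.

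In order of the group means, Emo-24h was highest for Actc1, Tnnt2, Myl7 and Ryr2, DEX-6h for Myh6, Tnni3 and Myl4, and Con-6h for Nppa. SAP-24h was lowest for Actc1, Myh6, Myl7 and Ryr2, Con-24h for Tnni3 and Myl4, and Emo-6h for Tnnt2 and Nppa. Actc1 averaged 48.5 ± 21.5 FPKM (SD, n = 3) in Emo-24h and 9.08 ± 9.11 FPKM in SAP-24h. Tnnt2 averaged 32.6 ± 9.9 FPKM in Emo-24h and 7.55 ± 7.86 FPKM in Emo-6h. Myh6 averaged 16.5 ± 12.9 FPKM in DEX-6h and 1.87 ± 3 FPKM in SAP-24h. For all 8 genes, each of the 9 pairs of neighbours in this order differed by less than the larger of their SDs. Of the 360 combinations of a gene and a pair of groups, 13 had no overlap between the 3 rats of each group, where 29.5% of such combinations were without overlap over all genes tested. Emo-24h was the higher group in all 13. It lay above Con-24h for 6 members (all but Actc1 and Nppa), where 18.1% of all genes did so, above Emo-6h for Tnnt2, Tnni3 and Ryr2 (26.2% of all genes), and above SAP-24h for Actc1 and Ryr2 (23% of all genes). It lay above Con-6h (18.4% of all genes) and above DEX-24h (18.6% of all genes) for Ryr2. Summed marker lists of other cells, described below, also stood apart between Emo-24h and Con-24h. Adipocyte genes were at 177 to 302 against 96.5 to 170 FPKM and mesothelium genes at 26.9 to 40.3 against 53.4 to 89.8 FPKM. Lung epithelium genes were at 54600 to 67700 against 79400 to 80500 FPKM. The adipocyte sum, with a median of 171 FPKM over the 30 libraries, lay mostly in Fabp4 and Lpl, at medians of 74.8 and 69.3 FPKM. Adipoq was at a median of 5.87 and Plin1 of 0.42 FPKM, and what other lung cells give to Fabp4 and Lpl was not tested. The sums of smooth muscle, skeletal muscle and cartilage overlapped, and the part of these cells in the member levels was not tested.

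Differential expression was tested to ask whether pancreatitis, DEX, emodin or time changed these genes. In edgeR's quasi-likelihood test on the counts of all 30 libraries, with Benjamini-Hochberg adjustment over 15934 genes, no member was called in any of 23 tests, where a call needed an adjusted p under 0.05 and a change of at least 2-fold. The test of any difference among the 10 groups, which has no fold threshold, called 56.6% of all genes and 0 of the 8 members, whose unadjusted p ranged from 0.4733 to 0.9295. DESeq2 also called 0 members in each test. At an unadjusted p under 0.05, edgeR gave 2 of 184 member tests, Actc1 in Emo-24h vs SAP-24h and Ryr2 in the change of the Emo and SAP difference with time. Over all 15934 genes, edgeR gave 4195 at that threshold in the first of these contrasts and 3725 in the second. DESeq2 gave 2 members in the first, 1 in the second and 1 in Emo-24h vs Emo-6h. These unadjusted counts depended on single rats. The first had 0 members without Emo-24h replicate 1, SAP-24h replicate 1 or SAP-24h replicate 2. The second had 0 with the replicate number of the labels as a block, and 0 without Emo-24h replicate 1 or 3, Emo-6h replicate 1 or 3, SAP-24h replicate 1 or 2, SAP-6h replicate 2 or 3, DEX-24h replicate 1 or Sham-24h replicate 3. Without SAP-24h replicate 3, the only SAP-24h rat of the upper set, edgeR gave 7 members in Emo-24h vs SAP-24h, all 8 in the change of the Emo and SAP difference with time, 4 in SAP-24h vs Sham-24h and 4 in SAP-24h vs SAP-6h, and none was called after adjustment. Without Sham-6h replicate 2, the only Sham-6h rat of the upper set, it gave 4 in SAP-6h vs Sham-6h, 3 in Sham-6h vs Con-6h and 6 in the change of the SAP and Sham difference with time, again without a call. Both rats stood out by the members' own levels, so leaving them out moves the member values by construction. These counts show the weight of single rats and are no result about the groups. How many of all genes had such a p was not recorded for DESeq2 or for fits with a rat left out.

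For the effect of pancreatitis, SAP-24h vs Sham-24h called 5% of all genes and 0 members, with log2 fold changes of the 8 genes from -1.98 to -0.50 (median -1.26, against -0.03 over all genes). SAP-24h vs Con-24h called 6.91% of all genes and 0 members, with member values from -1.05 to 0.42. At 6 h, SAP-6h vs Sham-6h called 0.22% and SAP-6h vs Con-6h called 0.163% of all genes, and the members had medians of 0.58 and 0.04 on the log2 scale. The change of the SAP and Sham difference from 6 to 24 h called 0.0314% of all genes. Sham-24h vs Con-24h called 1% of all genes, and members lay from 0.33 to 2.40 on the log2 scale without a call. Sham-6h vs Con-6h called 0% of all genes by edgeR, 1372 genes at an unadjusted p under 0.05 and 7 genes by DESeq2. The members' values in Sham-6h vs Con-6h lay from -1.74 to -0.02. Taurocholate vs none, over 18 and 12 rats, called 2.16% of all genes, and the members' median was 0.21. The shares over all genes in this paragraph depended on single rats, apart from that of taurocholate vs none. The 796 genes of SAP-24h vs Sham-24h were 402 without SAP-24h replicate 1, 463 without Sham-24h replicate 2 and 503 without Sham-24h replicate 1, and the 1101 of SAP-24h vs Con-24h were 615 without Con-24h replicate 2 and 693 without SAP-24h replicate 1. The 160 genes of Sham-24h vs Con-24h were 26 without Con-24h replicate 2, 47 without Con-24h replicate 1, 55 without Sham-24h replicate 3 and 366 without Con-24h replicate 3. The 26 genes of SAP-6h vs Con-6h were 0 without Con-6h replicate 3 or SAP-6h replicate 1, 8 without Con-6h replicate 1, 15 without SAP-6h replicate 3 and 53 without SAP-24h replicate 1. The 35 genes of SAP-6h vs Sham-6h ranged from 4 without Sham-6h replicate 3 to 60 without SAP-6h replicate 1, with 11 of the 30 libraries moving the count by over 1.5 times. The 5 genes of the change with time ranged from 0 to 16, and Sham-6h vs Con-6h had 1 gene without Con-6h replicate 3.

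For DEX, DEX-24h vs SAP-24h called 3.73% of all genes and 0 members, with all 8 values positive, from 0.55 to 1.23 on the log2 scale. DEX-6h vs SAP-6h called 0.515% of all genes, and 7 of 8 member values were positive, with a median of 0.56. The change of the DEX and SAP difference from 6 to 24 h called 0.138% of all genes, with a member median of 0.53. The 594 genes of DEX-24h vs SAP-24h were 337 without DEX-24h replicate 2 and 376 without DEX-24h replicate 3. The 82 genes of DEX-6h vs SAP-6h were 6 without SAP-6h replicate 2, 9 without DEX-6h replicate 1, 15 without SAP-6h replicate 3 and 23 without DEX-6h replicate 3, and the 22 of the change with time ranged from 0 without SAP-6h replicate 2 to 47 without SAP-24h replicate 2.

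For emodin, Emo-24h vs SAP-24h called 3.19% of all genes and 0 members. Its 508 genes were 136 without Emo-24h replicate 2, 202 without Emo-24h replicate 1 and 282 without SAP-24h replicate 1. Actc1 had a log2 fold change of 2.29 (SE 0.94, 95% interval 0.35 to 4.24) in Emo-24h vs SAP-24h, with an edgeR unadjusted p of 0.0227 and an adjusted p of 0.123, and the 3 Emo-24h rats were above the 3 SAP-24h rats. Over the alternatives the adjusted p of this difference ranged from 0.0615 to 0.298. The cartilage genes Comp and Col11a2 rose in Emo-24h vs SAP-24h, by 1.58 and 1.27 on the log2 scale (edgeR adjusted p = 0.0443 and 0.0360), with the list summed at 0.65 to 1.58 FPKM in Emo-24h and 0.33 to 0.39 FPKM in SAP-24h, and their part in the Actc1 value was not tested. The other 7 members lay from 1.00 to 2.36 on the log2 scale, and each of their 95% intervals included 0. Emo-6h vs SAP-6h called 0.0251% of all genes, and all 8 member values were negative, from -3.21 to -0.08. The change of the Emo and SAP difference from 6 to 24 h called 1.68% of all genes, or 268 genes, and this share depended on single rats. It was 1 gene without SAP-6h replicate 2, 3 without Emo-6h replicate 1, 23 without Emo-24h replicate 2, 47 without Emo-6h replicate 3, 67 without Emo-24h replicate 1 and 161 without SAP-24h replicate 1. It was 467 genes without SAP-6h replicate 1 and 605 without Emo-6h replicate 2. Ryr2 was not called in that contrast, at 3.63 (SE 1.70, 95% interval 0.11 to 7.15) on the log2 scale. Its edgeR unadjusted p was 0.0436 and its adjusted p was 0.1998, which ranged from 0.0783 to 0.369 over the alternatives. Comp was called in that contrast, at 2.76 on the log2 scale (edgeR adjusted p = 0.0296), and its part in the Ryr2 value was not tested. Emo-24h vs DEX-24h called 5.06% and Emo-6h vs DEX-6h called 1.41% of all genes, with member medians of 0.80 and -1.81. The 807 genes of Emo-24h vs DEX-24h were 386 without Emo-24h replicate 2, 409 without DEX-24h replicate 3, 427 without Emo-24h replicate 1 and 506 without DEX-24h replicate 2, and the 225 of Emo-6h vs DEX-6h were 45 without DEX-6h replicate 1, 82 without DEX-6h replicate 3, 126 without Emo-6h replicate 1 and 146 without DEX-6h replicate 2. The 4 genes of Emo-6h vs SAP-6h ranged from 0 to 8. SAP-24h is the reference of both drug comparisons at 24 h and SAP-6h of both at 6 h, so a low or high SAP rat enters both.

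For time, Emo-24h vs Emo-6h called 9.41% of all genes and 0 members, with all 8 values positive, from 0.67 to 2.64 on the log2 scale. Ryr2 was at 2.30 (SE 1.201, 95% interval -0.18 to 4.78) in Emo-24h vs Emo-6h with an edgeR adjusted p of 0.1414. Without Emo-6h replicate 2, the only Emo-6h rat of the upper set, it was called at 4.16 with an adjusted p of 0.0470. That rat stood out by the members' own levels, so this call is no result about time. DEX-24h vs DEX-6h called 7.14%, SAP-24h vs SAP-6h called 2.42% and Con-24h vs Con-6h called 0.00628% of all genes, and all 8 member values were negative in each, with medians of -0.76, -1.36 and -1.34. Sham-24h vs Sham-6h called 0.257% of all genes, with a member median of 0.39. Over all groups, 24 h vs 6 h called 4.36% of all genes and 0 members. Myh6 was the lowest member there at -1.17 (SE 0.80, 95% interval -2.82 to 0.48), with an edgeR adjusted p of 0.236. The 386 genes of SAP-24h vs SAP-6h were 185, 202 and 240 without SAP-6h replicates 3, 1 and 2, and 236 and 248 without SAP-24h replicates 3 and 1. The 41 genes of Sham-24h vs Sham-6h ranged from 0 without Sham-24h replicate 2 or 3 to 59, and the 1 gene of Con-24h vs Con-6h from 0 to 13 without Con-6h replicate 1. No left-out library moved the counts of DEX-24h vs DEX-6h, Emo-24h vs Emo-6h, 24 h vs 6 h, taurocholate vs none or the test among 10 groups by over 1.5 times.

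**Figure D3:**
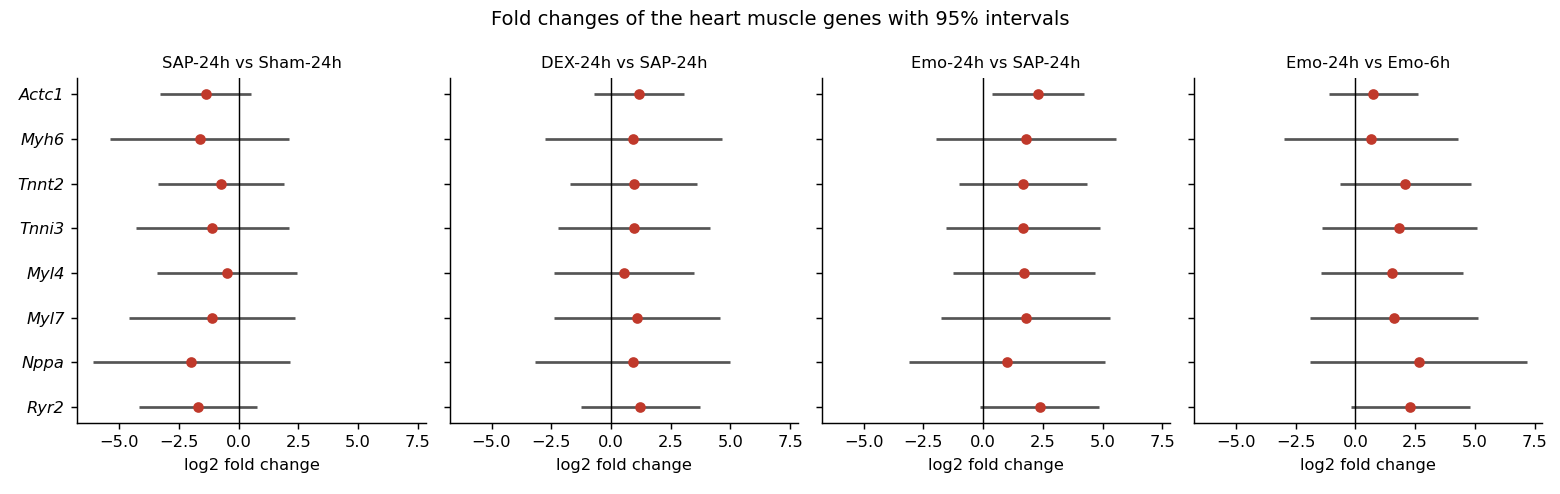
Log2 fold change (x axis, points) of each heart muscle gene (y axis) with its 95% interval (lines) from the edgeR model of 30 libraries, in 4 comparisons at or to 24 h. Every interval but that of Actc1 in Emo-24h vs SAP-24h includes 0.

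The standard errors of the members in the pairwise comparisons ran from 0.895 to 2.21 on the log2 scale, against a median of 0.223 or 0.224 over all genes. The biological coefficient of variation, the spread between rats of a group beyond counting error as a share of the mean, was 2.03 for Nppa, rank 8 of 15934 genes. It was 1.37 for Myh6 (rank 46), 1.28 for Myl7 (rank 67), 1.195 for Tnni3 (rank 86) and 1.10 for Myl4 (rank 124). Tnnt2 at 1.00 (rank 170), Ryr2 at 0.957 (rank 205) and Actc1 at 0.722 (rank 522) followed, and the median gene was at 0.191. The 10 groups took 17.03% of the variation of Nppa in log2 CPM, 17.2% of that of Myh6 and 28.5% of that of Actc1, with the other members between. The median gene was at 57.0%, and the 9 group degrees of freedom among 29 amount to 31%. All 8 genes therefore varied more between rats of a group than the median gene, and less of their variation lay between groups.

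**Figure D4:**
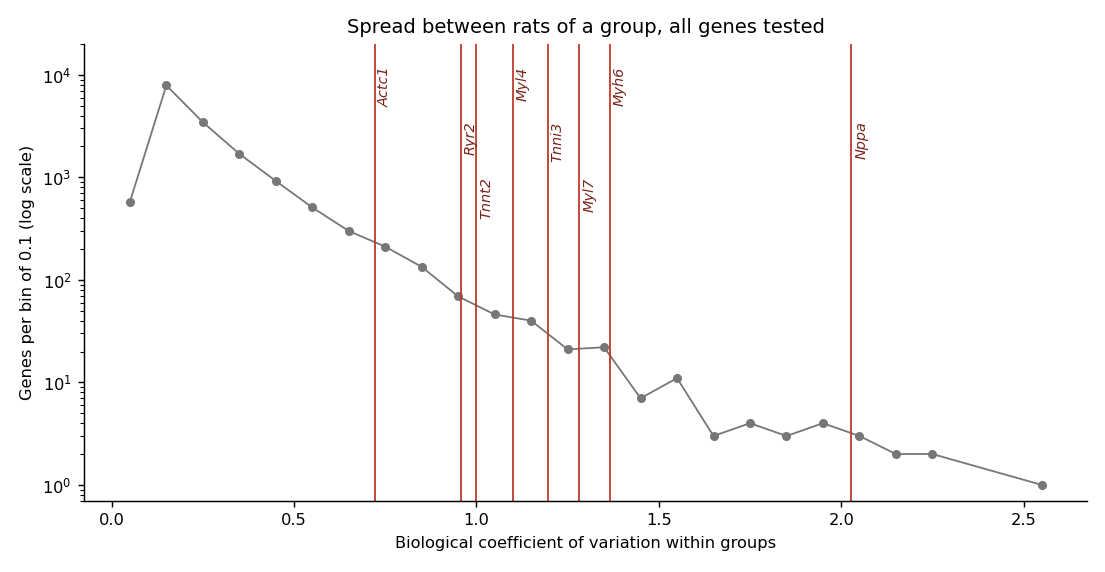
Number of genes per bin of 0.1 (y axis, log scale) by the biological coefficient of variation within groups (x axis) for the 15934 genes tested, with red lines at the 8 heart muscle genes. The median gene is at 0.191, and the members lie from 0.722 for Actc1 to 2.03 for Nppa.

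Because the libraries fell into a lower and an upper set, correlations between members were computed inside each set and not over all 30. The sets were read from the summed level of the same genes and mix groups and times, so r and rho are given as a description with no p. In the 17 upper libraries, the 28 pairs of members had Pearson r from 0.14 to 0.848 (median 0.609) and Spearman rho from 0.167 to 0.877 (median 0.591) on log2(FPKM + 1). Tnnt2 and Tnni3, both troponin subunits, had r = 0.848 and rho = 0.821. Actc1 and Myl4 had r = 0.803 and rho = 0.877. Nppa had the lowest r, 0.14 with Tnnt2 (rho = 0.167), and its highest was 0.528 with Myl7 (rho = 0.591). With the 2 libraries farthest from the median left out, all 28 r stayed positive, with a median of 0.529, 0.784 for Tnnt2 with Tnni3, 0.858 for Actc1 with Myl4 and 0.522 for Myl7 with Nppa. Within the upper set the median r was 0.488 over the 8 libraries of 6 h, 0.651 over the 9 of 24 h, 0.636 over the 11 with taurocholate and 0.623 over the 6 without, and all 28 pairs were positive in each. In the 13 lower libraries r ran from -0.158 to 0.976 (median 0.474) and rho from -0.057 to 0.962 (median 0.404). With 2 libraries left out, 3 of the 28 pairs of the lower set changed sign. The points of each correlation share the library's depth and RNA.

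The members also differed in their share of the summed FPKM of the 8 genes. In the 17 upper libraries, Actc1 took a median of 23.3%, Myl7 19.3%, Myl4 18%, Tnni3 16.9%, Tnnt2 14.6%, Myh6 5.32%, Nppa 1.62% and Ryr2 0.0676%. Tnni3 was the most even, between 12.7% and 20.9%, and Nppa the least, between 0.353% and 5.57%. Myh6 took 5.05% to 8.8% in the 8 upper libraries of 6 h and 2.37% to 7.09% in the 9 upper libraries of 24 h, with medians of 7.48% and 3.81%. In FPKM, Myh6 lay from 10.39 to 25.03 (median 15.44) in those of 6 h and from 3.74 to 12.98 (median 5.61) in those of 24 h, and the ranges overlapped only through Sham-24h replicate 1. Tnnt2 went the other way, from a median share of 11.6% at 6 h to 16.9% at 24 h. These shares were looked at after the levels had been seen, add up to a whole in each library, and were not tested.

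Lists of other muscle genes were compared with the members through the Pearson r of log2(FPKM + 1) with the members' mean over the 30 libraries. Since these libraries form 2 sets, an r over all of them includes the step between the sets, and it is given as a description beside the r within the 17 upper libraries, in that order. Of 18 sarcomere genes, 16 were matched in the tables and 11 had an r of at least 0.8 (median 0.88). Tnnc1, the troponin C of heart and slow muscle, ranged from 0.87 to 20.66 FPKM (r = 0.974, and 0.894 in the upper set), and Csrp3, a protein of the Z disc, from 0.02 to 16.11 FPKM (r = 0.973 and 0.545). Of 9 genes of muscle energy supply, 8 were matched, with a median r of 0.96. Mb, the oxygen store myoglobin, ranged from 0 to 47 FPKM (r = 0.986 and 0.797) and Cox6a2, a muscle subunit of cytochrome c oxidase, from 1.07 to 48.21 FPKM (r = 0.923 and 0.803). All 8 calcium handling genes were matched, with a median r of 0.79. Sln, the atrial inhibitor of the calcium pump, ranged from 0 to 29 FPKM (r = 0.941 and 0.344), whereas Atp2a2, the calcium pump that many cell types use, stayed between 18.85 and 41.21 FPKM (r = 0.711 and 0.732).

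Markers of ventricular muscle were near 0. The 5 ventricular genes summed to at most 1.92 FPKM in any library, with Myl2 at no more than 0.9 FPKM and without a read in 13 libraries, and Myh7 at no more than 0.9 FPKM. By comparison, the atrial light chains Myl4 and Myl7 reached 93.44 and 54.85 FPKM. The 9 skeletal muscle genes matched of 11 summed to 2.6 to 9.63 FPKM with a median r of 0.15. The highest of them by mean FPKM were Acta1 (0.26 to 7.62 FPKM, r = 0.683 and 0.238) and Pvalb (0.12 to 1.54 FPKM, r = 0.049 and 0.101). Among 8 heart transcription factors the median r was 0.52, with Tbx5 at 2.87 to 9.85 FPKM (r = 0.108 and -0.317) and Mef2c at 0.94 to 3.71 FPKM (r = 0.378 and -0.195), both of which lung cells other than heart muscle also use. Among 8 atrial channel and junction genes the median r was 0.35, led in level by Gja5, connexin 40 of atrial muscle and arterial endothelium, at 12.04 to 61.59 FPKM (r = 0.047 and -0.436), and by Corin, the protease that processes the Nppa product, at 0.24 to 1.02 FPKM (r = 0.229 and 0.474). The 9 smooth muscle genes summed to 286 to 1090 FPKM with a median r of 0.41, led by Tagln (r = 0.215 and 0.297) and Acta2 (r = 0.393 and 0.319).

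By median r over the 30 libraries, adipocyte genes followed the members more closely than the lists of ventricular, skeletal and smooth muscle did, and mesothelium genes had negative r. The 7 adipocyte genes summed to 45.9 to 353 FPKM with a median r of 0.59, with Fabp4 at 12.75 to 191.46 FPKM (r = 0.577 and 0.283) and Lpl at 18.04 to 177.07 FPKM (r = 0.103 and -0.195). The other adipocyte genes were Plin1, which coats fat droplets (r = 0.842 and 0.566), the fat hormone Adipoq (r = 0.725 and 0.424), the fat droplet protein Cidec (r = 0.697 and 0.679), the fat hormone Lep (r = 0.591 and 0.186) and Ucp1 of brown fat (r = 0.465 and 0.577), named after their values were seen. The 6 cartilage genes matched of 7 summed to 0.28 to 3.11 FPKM with a median r of 0.37. Col11a2 (r = 0.38 and 0.319) and Comp (r = 0.369 and 0.363) were the highest of them by mean FPKM. The 5 mesothelium genes had r from -0.47 to -0.18 over the 30 libraries, with Msln at 10.09 to 57.19 FPKM (r = -0.335 and 0.122) and Upk1b at 1.67 to 17.85 FPKM (r = -0.473 and -0.528). The 7 lung epithelium genes summed to 50400 to 94400 FPKM, with r from -0.24 to 0.16 over the 30 libraries, and Scgb1a1 of club cells and Sftpc of alveolar type 2 cells were at no less than 16320 and 12733 FPKM in any library. Every library was thus lung by its defining markers, and the part of adipocytes, airway or vessel wall in the levels of the 8 members was not tested.

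**Figure D5:**
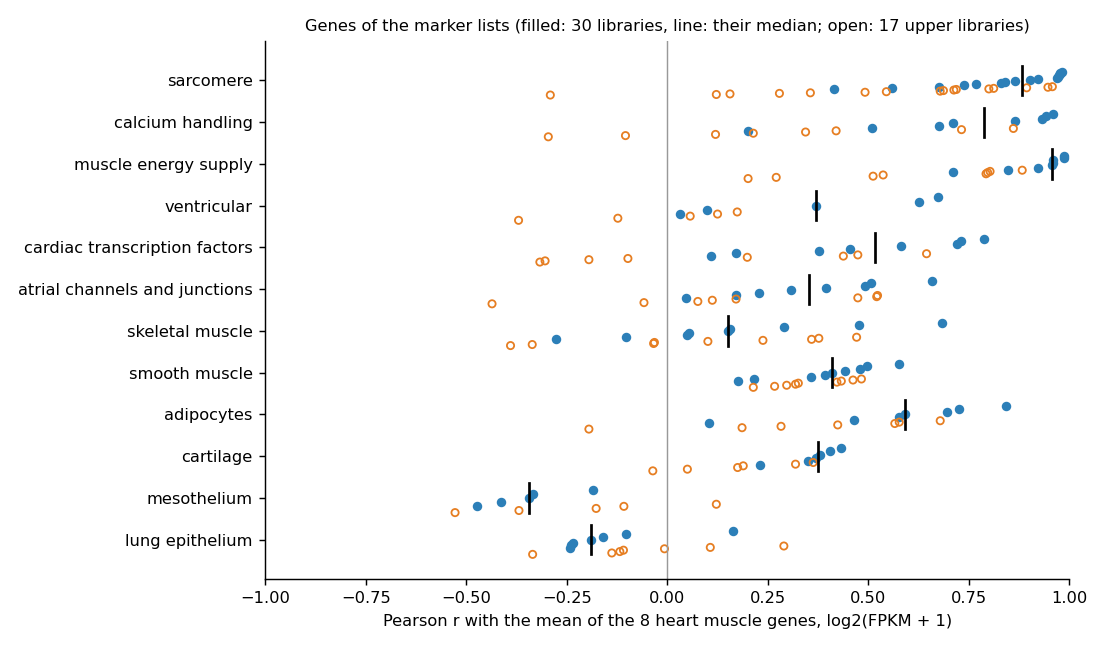
Pearson r of each list gene with the mean of the 8 heart muscle genes on log2(FPKM + 1) (x axis) by list (y axis), as filled points over 30 libraries with a line at their median, and as open points over the 17 upper libraries. Energy supply and sarcomere genes lie closest to 1 over all libraries, and every list has lower values within the upper set for at least some genes.

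In the same edgeR fits, 8 muscle energy genes and 3 ventricular genes were tested and 0 were called in any of the 23 tests. Of 14 sarcomere genes tested, Xirp2, of the intercalated disc, was called, and only in Emo-24h vs Emo-6h, where 9.41% of all genes were called. It rose by 2.00 (SE 0.71, edgeR adjusted p = 0.0322) on the log2 scale there, at 0.01 to 0.16 FPKM and at most 64 reads in any library. Over the 6 lists of sarcomere, calcium, energy, ventricular, transcription factor and atrial channel genes, this comparison called 5 of 46 genes, or 10.9%, which is near the share over all genes and no result about heart muscle genes. The test of any difference among the 10 groups also called 5 of these 46, Cacna1c, Mef2c, Shox2, Kcnj5 and Gja5, where 56.6% of all genes were called. In Emo-24h vs Emo-6h the calcium handling gene Pln, phospholamban, rose by 2.21 (SE 0.83, edgeR adjusted p = 0.0435). Trdn, triadin, rose there by 2.59 (SE 0.89, edgeR adjusted p = 0.0269). Shox2, a factor of the sinus node and pulmonary vein muscle, rose by 2.34 (SE 0.79, edgeR adjusted p = 0.0256), and Kcnj5, a potassium channel subunit of atrial muscle, by 1.64 (SE 0.51, edgeR adjusted p = 0.0160). Reads of Shox2 were few, at most 30 in any library. The summed sarcomere level was 39.7 to 62.1 FPKM in the 3 Emo-24h rats and 3.98 to 36.6 FPKM in the 3 Emo-6h rats. The 8 members had a median of 1.73 on the log2 scale in the same comparison with no call and standard errors from 0.897 to 2.19. Within the 17 upper libraries Xirp2, Pln, Trdn, Shox2 and Kcnj5 had r with the members of 0.156, 0.12, -0.296, -0.304 and 0.112, against 0.739, 0.864, 0.677, 0.454 and 0.506 over all 30. Genes of the lists of other cells moved in it as well. Of 6 adipocyte genes tested, 2 were called, Fabp4 and Lpl, which rose by 2.27 and 1.25. Actg2 of smooth muscle fell by 1.27 and Msln of mesothelium fell by 1.22, and the part of these cells in the muscle values was not tested. Gja5 rose by 1.32 in SAP-24h vs Sham-24h (edgeR adjusted p = 0.00805) and fell by 1.08 in DEX-24h vs SAP-24h (edgeR adjusted p = 0.0295), and rose by 1.30 in SAP-24h vs SAP-6h (edgeR adjusted p = 0.0155). These 3 comparisons share the SAP-24h rats and called no member, and Gja5 was the 1 gene called in each of them among the same 46 heart list genes, where 5%, 3.73% and 2.42% of all genes were called. Markers of other cells were called there too. Aqp5 of lung epithelium fell by 1.55 and Myh1 of skeletal muscle fell by 2.49 in SAP-24h vs Sham-24h, Lmod1 of smooth muscle and Lpl rose by 1.09 and 1.16 in DEX-24h vs SAP-24h, and Comp of cartilage fell by 2.41 in SAP-24h vs SAP-6h. Their part in the values of Gja5 was not tested. Myh1 lay near the floor, at 0 to 0.03 FPKM and at most 17 reads in any library. Other calls of list genes were Comp (-1.61), Myh1 (-2.66) and Aqp5 (-1.85) in SAP-24h vs Con-24h, Col11a2 (1.38) and Sftpb (-1.11) in Emo-24h vs DEX-24h, Atp2a1 (-1.94), Cnn1 (-1.05) and Lpl (1.54) in DEX-24h vs DEX-6h, Col2a1 (-2.87) in 24 h vs 6 h, and Myh1 (-1.36) and Aqp5 (-1.18) in taurocholate vs none, each as a log2 fold change. Col2a1 was at a median of only 0.025 FPKM over the 30 libraries.

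Over the 13708 genes with a symbol and a mean of at least 0.5 FPKM, the 12 genes whose pattern was most like the members' mean were Ckm, Mb, Eef1a2, Actn2, Myoz2, Mybpc3, Tnnc1, Csrp3, Mybphl, Hrc, Ckmt2 and Pgam2, with r from 0.987 to 0.96 over 30 libraries. Creatine kinases Ckm and Ckmt2, myoglobin and Pgam2 serve energy supply, and Actn2, Myoz2, Mybpc3, Tnnc1, Csrp3 and Mybphl belong to the sarcomere. Of the 12, 11 were in the lists above, and Eef1a2, the translation elongation factor of muscle and neurons, was not. Eef1a2 ranged from 0.05 to 6.77 FPKM, with r = 0.985 over 30 libraries and 0.955 over the 17 upper ones. Mybpc3 (0.958) and Actn2 (0.947) were also close within the upper set, whereas Myoz2 (0.492), Ckmt2 (0.537) and Csrp3 (0.545) were not. In all, 20 genes had an r of at least 0.9, 39 of at least 0.8, and 0 of -0.8 or less.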

How the data were processed

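The authors clipped low-quality bases and adaptors, mapped the reads with TopHat2 to the rat genome rat_ensembl_v6 with 2 mismatches, discarded multi-mapped reads and counted the rest on genes. The deposited counts are raw whole numbers, and the deposited FPKM values are rounded to 2 decimals. Genes passing filterByExpr (at least 10 counts, 15 in total) entered edgeR 4.0.16 (with limma 3.58.1, R 4.3.3). Libraries were scaled by TMM, and 1 quasi-likelihood fit took the 10 groups together, leaving 20 residual degrees of freedom. The 23 tests were 17 pairwise comparisons, 2 pooled contrasts, 3 interactions and a test among the 10 groups. Calls needed both a Benjamini-Hochberg p under 0.05 and a 2-fold difference. FPKM served for levels and correlations as log2(FPKM + 1), computed with scipy 1.17.1, pandas 2.3.3 and numpy 2.4.6 under Python 3.11.15, and matplotlib 3.10.9 drew the figures. Correlations between members had been planned over 30 libraries, but the libraries fell into 2 sets, so these were computed within sets. Permutation tests of the pairs were run within each set, but their p is not given because the sets were read from the same genes. Correlations of other genes with the members' mean are over 30 libraries, with the upper set beside them.

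Members and lists were chosen with earlier results of these data known. The rule for names gives every member by level, fold changes for members called or with an unadjusted p under 0.05, the 2 genes of highest mean FPKM of each list, and the 12 genes most like the members. List genes called in a test, the other adipocyte genes, Ryr2 and Myh6 in time contrasts and 4 genes of the closing section were named after their values were seen. Of 102 list genes, 6 were not matched: Ttn, Nebl, Cox7a1, Myh2, Myh4 and Cnmd. Alternatives were DESeq2 1.42.0, RLE scaling, no low-count filter, no fold threshold, models of the 2 groups alone, a replicate block, a pseudocount of 0.1, TMM-scaled log2 CPM, Spearman correlation and each library left out. Each library is 1 rat, and libraries of a group differed by 35.4 to 197 times the counting variance. Taurocholate is confounded with a lower share of uniquely mapped reads, which cannot be told apart from it.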

Additional observations from a re-analysis of the deposited data

How the results depend on the processing

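Counts of members called were 0 in nearly every fit, which with these standard errors says little about stability, and the unadjusted counts moved with single rats. The exception among the calls was Emo-24h vs Emo-6h, where leaving out each library in turn gave 0 to 1 members. The 1 was Ryr2 without Emo-6h replicate 2, the only rat of its group in the upper set. The log2 fold changes of Actc1 in Emo-24h vs SAP-24h (1.91 to 3.48) and of Ryr2 in the time change of Emo against SAP (3.10 to 5.47) kept their sign without a call. Of the 12 genes most like the members, 11 were shared with a pseudocount of 0.1 and 9 with Spearman's rho. For correlations between members, residuals from group means were not run, since they would pool both sets.

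With a replicate block, 0 members were called in each of the 23 tests, and all genes called numbered 1486 in Emo-24h vs Emo-6h, against 1500 without it. It moved 3 counts over all genes by over 1.5 times, each from a small number: Con-24h vs Con-6h from 1 to 2, and the time changes of SAP against Sham from 5 to 9 and of DEX against SAP from 22 to 14. Same-numbered libraries of different groups had a median correlation of deviations of -0.00648, and 8 of 30 were closest to their own number, so the numbers did not pair the rats.

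The counts over all genes depended on the fit. DESeq2 called 191 genes in SAP-6h vs Sham-6h (35 by edgeR), 93 in SAP-6h vs Con-6h (26), 149 in DEX-6h vs SAP-6h (82), 8 in Emo-6h vs SAP-6h (4), 389 in Emo-6h vs DEX-6h (225), 177 in Sham-24h vs Sham-6h (41), 108 in Con-24h vs Con-6h (1), 595 in SAP-24h vs SAP-6h (386), and 121, 173 and 598 in the time changes of SAP, DEX and Emo (5, 22 and 268). Models of the 2 groups alone moved 11 of 17 counts, among them SAP-24h vs Sham-24h from 796 to 3 and Emo-24h vs SAP-24h from 508 to 0. Without the filter 3 moved, Sham-24h vs Sham-6h from 41 to 12. Of 690 fits with a library left out, 138 moved by over 1.5 times, in 18 of the 23 tests. With 3 rats a group, standard errors of the members ran from 0.895 to 2.21 on the log2 scale in pairwise comparisons and from 1.27 to 2.96 in changes with time, and a value of 4.21 for Nppa in the time change of Emo against SAP was not called.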

Other observations

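Genes outside muscle also followed the members from rat to rat. These were picked after their values were seen, from the 39 genes with an r of at least 0.8 with the members' mean over 30 libraries. Bpifa1, a protein secreted by the lining of the large airways, ranged from 0.33 to 698.24 FPKM (r = 0.885, and 0.302 in the 17 upper libraries). It was at 5.22, 405.35 and 1.03 FPKM in Sham-6h, at 0.33, 185.47 and 1.85 FPKM in Emo-6h and at 20.73, 5.67 and 336.2 FPKM in SAP-24h, so the high rat in each of these groups was also the high rat for heart muscle genes. In Con-24h it was at 674.9, 60.97 and 3.59 FPKM and in Emo-24h at 379.28, 18.65 and 141.02 FPKM, where the second rat had high heart muscle levels with little Bpifa1.

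Among fat genes, Thrsp, a regulator of fat synthesis, ranged from 0.02 to 20.92 FPKM (r = 0.878 and 0.722) and Plin1, which coats fat droplets, from 0 to 3.81 FPKM (r = 0.842 and 0.566). Thrsp was at 0.07, 7.04 and 0.09 FPKM in Sham-6h and at 0.19, 20.92 and 5.62 FPKM in Con-6h. Dnaaf3, needed to assemble the dynein arms of cilia, ranged from 1.92 to 9.94 FPKM (r = 0.882 and 0.722). Dnaaf3 is the gene next to Tnni3 in the RefSeq table of GRCr8, with Tnnt1 on the other side of Tnni3, and whether reads of neighbouring transcripts enter its count was not tested.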
